A study of Mus musculus with 4 samples.

Results

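The beta cells of the mouse islet library cultured with 1 mM imeglimin at 11.1 mM glucose were described at single-cell resolution. Of the 8935 cell barcodes in this library, 8427 held at least 1000 unique molecular identifiers (UMIs) and 500 genes with at most 20% of UMIs from mitochondrial (mt-) genes. Of these, 5704 (67.69%, exact Clopper-Pearson 95% interval 66.68% to 68.69%, counting error only) gave at least 4% of their UMIs to Ins1 and Ins2 together, under 2% to Gcg, under 1% to Sst and under 1% to Ppy, and were taken as beta cells. The barcodes were thus chosen by measured hormone shares, depth and mt- share, and these values are given below only as a description. The 4 libraries of the series held 35707 barcodes in all. The same limits kept 4853 barcodes with imeglimin at 3.9 mM glucose, 5197 with vehicle at 11.1 mM and 4525 with vehicle at 3.9 mM.

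Imeglimin is an oral glucose-lowering drug used in type 2 diabetes. Male C57BL6J mice of the wild type, 8 weeks old, gave the islets, which were kept for 24 h with 1 mM imeglimin or with DMSO, its vehicle, at 3.9 or 11.1 mM glucose, and each of the 4 combinations was made into 1 droplet library. The labels do not say how many mice gave islets to a library, and cells of 1 library are not replicates. All values below are therefore descriptions of this library, with no test and no replicate check. Of its barcodes, 79 also occurred in another library, 26 of them among the beta cells.

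Beta cells make proinsulin in the endoplasmic reticulum, fold it with the help of chaperones, and pack it with zinc and amylin into granules where prohormone convertases cut it. Glucose enters through the transporter Slc2a2 and is burned through glycolysis and mitochondrial respiration, which closes potassium channels and triggers release. The load of secretory protein makes these cells prone to endoplasmic reticulum stress, read by the unfolded protein response and the integrated stress response. Metallothioneins bind the zinc and other metals that such cells handle in large amounts.

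Promoters of genes from 3 groups that varied together between the beta cells are shown first, since the groups return below: the metallothioneins, an interferon group and a hypoxia group. Each is the 250 bases before the annotated start in RefSeq (GRCm38.p6), read 5′ to 3′ on the strand of the gene, with motif matches in capitals. In Mt1 (chr8:94178839-94179088, plus strand) and Mt2 (chr8:94172368-94172617, plus strand) capitals mark the core of the metal response element. In Ifit1 (chr19:34640639-34640888, plus strand) and Ifit3 (chr19:34583279-34583528, plus strand) they mark the interferon-stimulated response element. In Bnip3 (chr7:138909507-138909756, minus strand) they mark the hypoxia response element.
Mt1: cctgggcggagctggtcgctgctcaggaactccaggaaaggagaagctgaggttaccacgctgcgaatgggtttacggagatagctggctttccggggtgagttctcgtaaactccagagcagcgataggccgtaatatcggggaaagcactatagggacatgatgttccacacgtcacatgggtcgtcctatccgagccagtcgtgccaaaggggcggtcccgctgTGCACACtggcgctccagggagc
Mt2: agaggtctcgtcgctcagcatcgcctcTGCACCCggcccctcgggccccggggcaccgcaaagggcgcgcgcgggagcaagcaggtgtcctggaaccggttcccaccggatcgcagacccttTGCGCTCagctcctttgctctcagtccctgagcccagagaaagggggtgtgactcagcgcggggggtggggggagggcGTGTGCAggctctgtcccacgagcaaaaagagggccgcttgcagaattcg
Ifit1: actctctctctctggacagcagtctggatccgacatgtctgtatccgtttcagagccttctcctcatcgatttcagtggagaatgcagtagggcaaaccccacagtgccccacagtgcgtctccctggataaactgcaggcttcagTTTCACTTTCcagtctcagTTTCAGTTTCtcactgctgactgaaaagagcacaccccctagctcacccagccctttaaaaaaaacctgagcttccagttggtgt
Ifit3: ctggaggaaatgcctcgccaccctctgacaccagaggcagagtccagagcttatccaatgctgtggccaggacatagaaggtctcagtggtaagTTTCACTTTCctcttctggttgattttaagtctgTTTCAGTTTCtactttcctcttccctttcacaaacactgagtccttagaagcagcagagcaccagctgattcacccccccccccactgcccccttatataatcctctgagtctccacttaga
Bnip3: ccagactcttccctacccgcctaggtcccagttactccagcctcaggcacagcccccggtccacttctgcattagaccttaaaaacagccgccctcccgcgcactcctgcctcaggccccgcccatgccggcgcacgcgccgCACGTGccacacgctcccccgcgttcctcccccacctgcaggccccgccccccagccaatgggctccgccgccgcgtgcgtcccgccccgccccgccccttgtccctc

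The letters searched, on both strands, were TGCACNC and TGCGCNC for the metal response element, GAAA, any 2 bases and GAAA again for the interferon element and ACGTG for the hypoxia element. They occurred in 21.4%, 2.98% and 16.6% of all 32851 promoter windows of the same length. Mt1 held 1 and Mt2 held 3 matches to the metal element. Bases outside the windows were not searched, so these counts do not rank the 2 genes. Ifit1 and Ifit3 held 2 matches each to the interferon element, Rsad2 held 1 and Cmpk2 held 0. The hypoxia letters occurred in the windows of Bnip3 (2 matches that overlap, on opposite strands), Pgk1 (2), Egln1, Pgam1 and Fam162a (1 each), and did not occur in those of Gapdh and Mif. Aldoa has 3 promoters in the table, and 2 of them held 1 match each. These are matches of letters, not evidence of binding.

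The beta cells were deeply sequenced. They held a median of 12755.5 UMIs per barcode, with a 5th percentile of 5748 and a 95th of 28310, and a median of 3178 genes. Mitochondrial genes took a median of 2.30% of UMIs. The insulin share that chose the barcodes had a median of 27.5% and ran between 4.05% and 82.3%, and few barcodes lay near its limit: 11 beta cells were between 4% and 5%, and 9 other barcodes between 3% and 4%. The lowest share inside was 4.049% and the highest outside 3.827%. The hormone limits cut closer to a continuum, with the highest Gcg share inside at 1.993% and the lowest outside at 2.018%, Sst at 0.996% and 1.002%, and Ppy at 0.9875% and 1.006%. Over the insulin limit, 262 barcodes passed the Gcg limit, 209 the Sst limit and 98 the Ppy limit and were left out.

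The label of beta cells fits genes that the limits did not use. Iapp, the amylin precursor, stood at 93250 CPM over the summed barcodes (CPM, UMIs per 1000000 UMIs), and Nkx6-1, a transcription factor of beta cells, at 299.7 CPM. Nkx6-1 was detected in 72.4% of the 5490 beta cells with at least 5000 UMIs after each was thinned to 5000 UMIs, against 2.83% of 106 endothelial or macrophage barcodes of the same library treated in the same way. Before thinning, the median depths were 12755.5 UMIs over all beta cells and 3415 over all 512 endothelial or macrophage barcodes, in which insulin took a median of 0.3385% of UMIs. Ucn3, a peptide of mature mouse beta cells, reached 103.1 CPM and Slc2a2 67.29 CPM. The 8 beta-cell markers other than Ins1 and Ins2 were each above 1 CPM.

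Markers of other cells were low in sum but not absent. The 6 endothelial markers summed to 17.6 CPM in beta cells, against 9010 CPM in the endothelial or macrophage barcodes, and the 6 macrophage markers to 21.7 against 2680 CPM. The 8 acinar markers summed to 38.2 CPM, with 1 of them at 0 UMIs, the 6 stromal markers to 2.1 CPM and the 4 T and NK markers to 0.0492 CPM with 2 at 0. All 4 erythroid markers were at 0. The 5 duct markers summed to 332 CPM, of which Spp1 (osteopontin, a secreted phosphoprotein) alone gave 246.9 CPM. Among islet endocrine cells, the 3 pancreatic polypeptide cell markers summed to 549 CPM, 5 alpha markers to 417 CPM and 4 delta markers to 148 CPM. These sums hold Ppy, Gcg and Sst, which the limits used. At least 3 of 6 proliferation markers were found in 11 of 5704 beta cells (0.193%, interval 0.0963% to 0.345%).

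The hormone genes Ins2, Iapp and Ins1 led the list of the most expressed genes. Ins2 gave 211900 CPM and Ins1 75350 CPM, and together with Iapp they took 38.0% of all UMIs. Over barcodes, Ins2 had a 5th percentile, median and 95th percentile of 110000, 202000 and 310000 CPM, Iapp of 44900, 92000 and 133000 CPM, and Ins1 of 22200, 71000 and 121000 CPM. The Ins2 to Ins1 ratio was 2.81 in the sum and 2.82 in the median barcode, with 1.87 at the 5th and 6.42 at the 95th percentile, so the upper tail of the ratio was the longer. These are 3′ counts of molecules and need no correction for length.

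After the hormones came Malat1, a nuclear long RNA, at 20910 CPM, and Mt1, a metallothionein, at 8597 CPM. Mt1 ranked 5th of all genes and Mt2, its neighbour on chromosome 8, ranked 20th at 1804 CPM. The ferritin light chain Ftl1 gave 5096 CPM and the translation-linked Tpt1 4880 CPM. The granule proteins Chga, Scg3 and Scg2 gave 2738, 1751 and 1633 CPM. The other places in the top 25 went to 6 mt- genes, led by mt-Co3 at 5304 CPM, to 6 ribosomal protein genes, and to the translation factors Eef1a1 and Eif1. The top 25 genes held 46.8% of all UMIs and the mt- genes 2.42%.

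**Figure D1:**
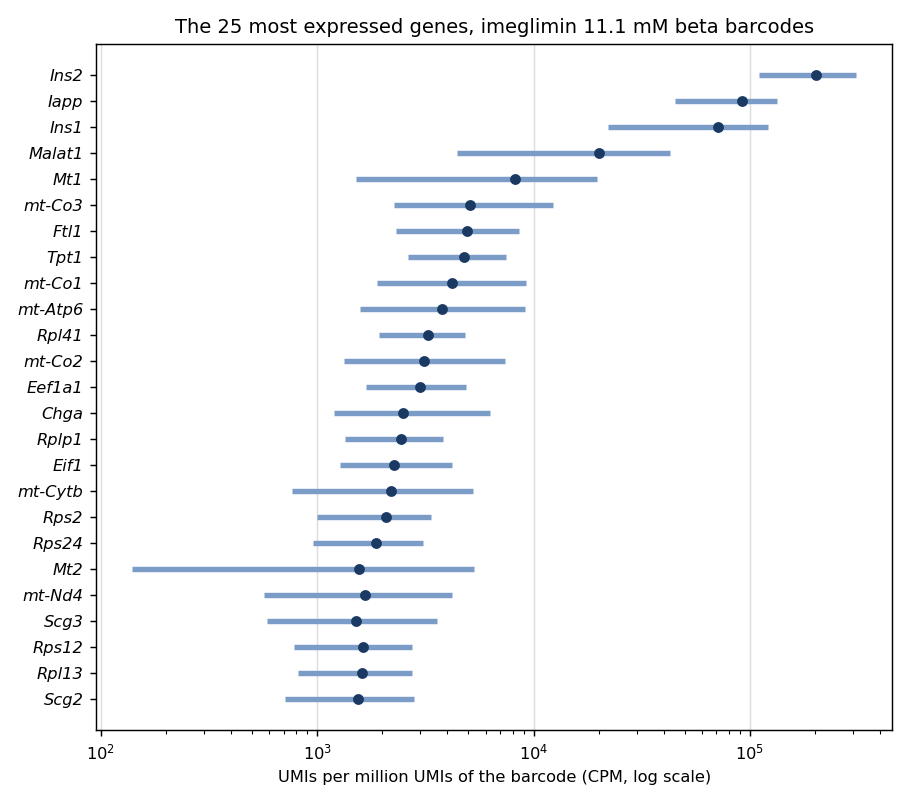
Levels of the 25 genes with the most UMIs in the 5704 beta cells of the imeglimin 11.1 mM library, as CPM of the barcode's own UMIs on a log scale. Points are medians over barcodes and bars run between the 5th and the 95th percentile; Mt2 has the widest bar, between 140 and 5320 CPM.

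In the plot of levels, ribosomal protein genes have short bars and the metallothioneins long ones. Mt1 ran between 1520 CPM at the 5th and 19700 CPM at the 95th percentile around a median of 8180 CPM. Mt2 ran between 140 and 5320 CPM around 1560 CPM. Rpl41, a ribosomal protein gene between them in level, ran only between 1930 and 4840 CPM.

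To measure this spread at equal depth, each of the 5490 barcodes with at least 5000 UMIs was thinned to 5000 UMIs, leaving out 214, and the variance of each gene was divided by its mean. This Fano factor is about 1 where only the drawing of molecules makes barcodes differ. Over 5131 genes with a mean of at least 0.1 UMI, the median was 1.04, with 0.991 and 1.34 at the 5th and 95th percentiles, and 90 genes (1.75%) reached 2. Most genes thus lay near 1 at this depth, and a short list lay far above. In genes of low mean a Fano factor near 1 does not show little variation, since the factor grows with the level. The genes named next had the highest Fano factors relative to the 200 genes nearest in mean.

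The spread took 3 forms. The first was a graded spread in genes that nearly every beta cell carried. Ins2 had a Fano factor of 106, Ins1 of 62.5, Iapp of 36.3, Malat1 of 30.9, Mt1 of 19.0 and Mt2 of 7.9. Since the Fano factor grows with the level, the coefficient of variation beyond counting is the fairer measure between genes: it was 0.278 for Iapp, 0.319 for Ins2, 0.413 for Ins1, 0.529 for Malat1, 0.63 for Mt1 and 0.837 for Mt2. Relative to its level, amylin was thus the steadiest of these and Mt2 the most variable. Rpl41 had 0.209. The granins Chga and Chgb had 0.58 and 1.14, and the glycolytic enzyme Gapdh 0.781.

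The second form was a wide spread in genes that a part of the cells carried. Nupr1, a stress-induced chromatin protein, was detected in 67.8% of beta cells at 5000 UMIs with a Fano factor of 9.55, and ran between 0 and 3680 CPM over the span between the 5th and 95th percentiles. Ero1l, an oxidase of the endoplasmic reticulum, was detected in 60.4% with a Fano factor of 5.19. Ttr, the thyroid hormone carrier transthyretin, was detected in 68.8% with 4.46. Hmox1, which breaks down heme, was detected in 25.7% with 5.75, and Spp1 in 24.0% with 14.2. In the endothelial or macrophage barcodes Nupr1 was detected in 13.2%, Ttr in 16.0% and Spp1 in 8.49%, but Ero1l in 57.5% and Hmox1 in 34.9%. Detection of Hmox1 was thus not above that in those barcodes, and that of Ero1l was little above it.

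The third form was a small set of barcodes with very many UMIs of a gene. Lcn2, which binds iron-loaded siderophores, was detected in 3.01% of beta cells, and the 1% of barcodes with the most held 79.1% of its UMIs, against a median of 9.91% for genes of like mean. Rsad2, an antiviral enzyme induced by interferon, was detected in 8.45% with 59.0% of its UMIs in that top 1%. Pyy, a peptide hormone of pancreatic polypeptide cells, had the next highest Fano factor after Ins2, at 89.5, with 53.2% of its UMIs in the top 1%. It reached 1% of UMIs in 59 of 5704 beta cells (1.03%, interval 0.788% to 1.33%), and the limits that chose the barcodes did not use it.

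Gcg, Sst and Ppy, which the limits did use, had Fano factors of 36.5, 22.7 and 12.3. The shares of barcodes with a UMI were close to those in the endothelial or macrophage barcodes, which were chosen without a limit on these hormones. Pyy was detected in 26.8% of beta cells and 26.4% of the endothelial or macrophage barcodes, Gcg in 48.1% and 51.9%, and Ppy in 21.2% and 26.4%. Sst was detected in 13.6% and 10.4%. Detection of Pyy, Gcg and Ppy thus does not show that beta cells make them, and whether it was background was not tested. Pyy gave 390.3 CPM in beta cells and 3190 CPM in the endothelial or macrophage barcodes, Gcg 366.9 and 2640 CPM, Ppy 108.9 and 3670 CPM, and Sst 118.2 and 47.0 CPM. The limits held Gcg, Sst and Ppy down in the beta cells only, so their levels cannot be compared between the 2 sets. A Pyy share of 1% was reached by 6 of those 512 barcodes (1.17%, interval 0.431% to 2.53%), so some high Pyy barcodes lay outside the beta cells. Without the barcodes of the highest doublet scores, the Fano factor of Pyy was 85.5 and that of Sst 17.3. The scores came from a run that called 0 doublets, so the part of doublets in this tail was not tested. With Gcg, Sst, Ppy and Pyy each under 0.1% of UMIs, a limit chosen after the data were seen, 86 genes reached a Fano factor of 2, and 83 of them were among the 90.

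**Figure D2:**
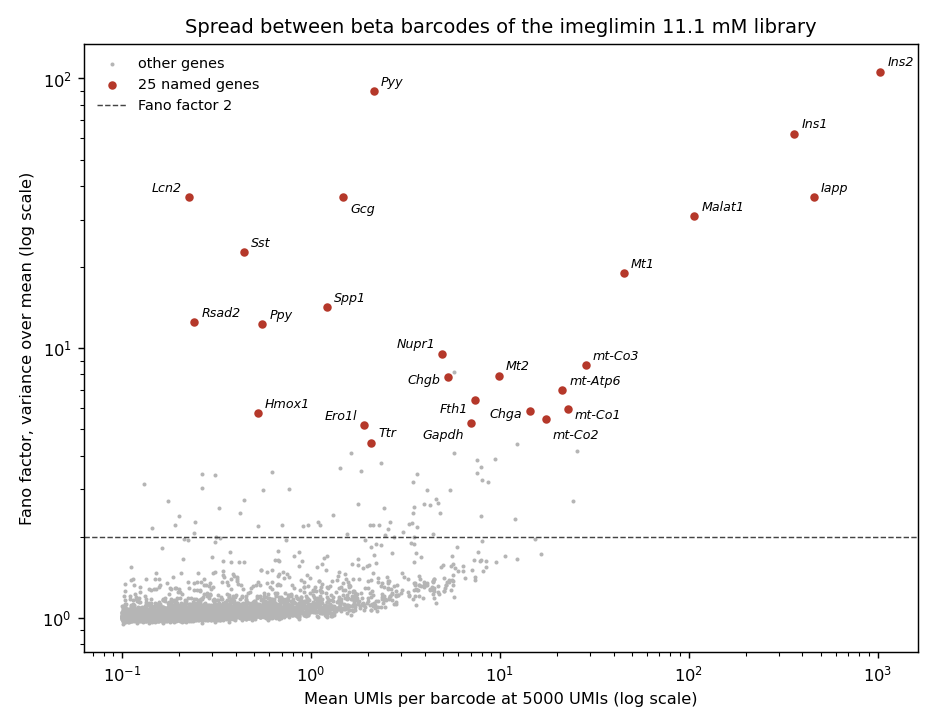
Fano factor against the mean number of UMIs per barcode for 5131 genes, both on log scales, in 5490 beta cells thinned to 5000 UMIs. Red points are the 25 named genes and the dashed line marks a Fano factor of 2; most genes lie near 1 and the hormones, Malat1 and Mt1 lie far above.

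Genes that varied together were sought with Pearson's r over all 5704 barcodes, computed on residuals: the UMIs of a gene minus those expected from its share and from the barcode's UMIs outside Ins1, Ins2, Iapp and mt- genes, scaled by their expected spread. All points share 1 library, so r is a description. Over 19503135 pairs of 6246 genes with a mean of at least 0.2 UMI, the median r was 0.0012 and the 5th and 95th percentiles were -0.034 and 0.036. An r of at least 0.3 was reached by 3218 pairs (0.0165%), made by 357 genes, and an r of -0.3 or less by 90 pairs (0.000461%). An r this high was thus rare, and the heat map of named genes shows some of the groups it joined as blocks. Counting noise holds r down in sparse genes, so a low r does not show that genes varied apart.

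**Figure D3:**
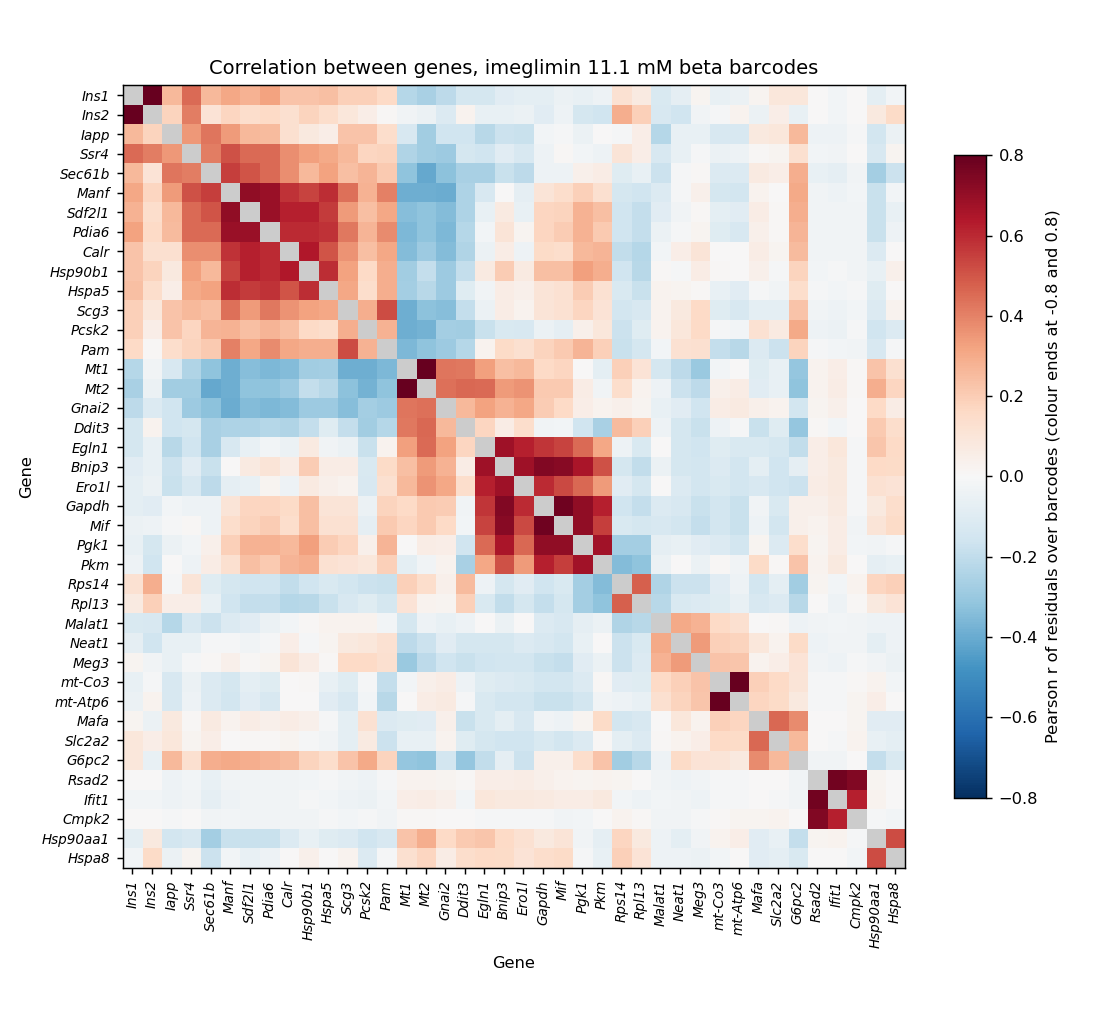
Pearson r of residuals over the 5704 beta cells between 40 genes, as colour between -0.8 (blue) and 0.8 (red); the diagonal is grey. Red blocks run along the diagonal for insulin, the unfolded protein response, the metallothioneins, hypoxia and glycolysis, ribosomal proteins, mt- genes and interferon genes, and a blue field lies between the metallothioneins and the unfolded protein response.

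Insulin and amylin did not vary as 1 unit. Ins2 and Ins1, on chromosomes 7 and 19, had an r of 0.85, but Iapp had only 0.26 with Ins1 and 0.18 with Ins2. Their other partners overlapped in part. After Ins2, Ins1 went most closely with Ssr4, of the translocon where secretory proteins enter the endoplasmic reticulum (0.45). After Ins1, Ins2 went most closely with Ubb, which encodes ubiquitin (0.47), and then with Ssr4 (0.41). Iapp went most closely with Sec61b, the translocon channel's beta subunit (0.43), and with Ndufa4 of the respiratory chain (0.37), but it too had 0.35 with Ssr4, and Manf had 0.34 with Iapp and 0.31 with Ins1. With expected counts set from all UMIs, the r of Ins1 with Ssr4 was 0.27 and that of Ins2 with Ubb 0.24. The median r of the 3 pairs was 0.26, but it was -0.07 when the expected counts were set from all UMIs of the barcode, a total of which these genes are a large part.

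The unfolded protein response formed a block among the secretory genes. Its list had 28 of 29 members measured, with a median r of 0.173 and 121 of 378 pairs (32.0%) at 0.3 or more. The secreted stress factor Manf had 0.71 with the chaperone partner Sdf2l1 and 0.69 with the disulfide isomerase Pdia6, and the lectin chaperone Calr had 0.64 with Hsp90b1. Hspa5, the master chaperone BiP, gave 1629 CPM with a Fano factor of 3.64. The granins and prohormone processing genes were looser, with a median of 0.074 over 120 pairs and 8 pairs at 0.3 or more. Scg3 with the amidating enzyme Pam had 0.52 and Vgf, a neuropeptide precursor, had 0.41 with Pam, while Chga was in 1 of those pairs only, with Resp18 at 0.31. Scored as the mean over their lists, the unfolded protein response and the granins had an r of 0.45.

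Metallothioneins ran against this block. Mt2 and Mt1, 5513 bases apart, had an r of 0.84. The lowest r of Mt1 were with Lman1, a cargo receptor between the endoplasmic reticulum and the Golgi (-0.40), and with the convertase Pcsk2, Manf and Scg3 (-0.39 each). The lowest r of all pairs joined Mt2 and Sec61b (-0.41). In the other direction, Mt1 had 0.43 with Gnai2, the alpha subunit of an inhibitory G protein, and 0.42 with Ddit3, the stress factor CHOP, and Mt2 had 0.46 with Ddit3. Gnai2 also had -0.40 with Manf. Barcodes rich in metallothionein RNA thus tended to be poorer in RNAs of folding and granule proteins and richer in Ddit3. Of the other measured members of the metal list, Slc30a1, which exports zinc from the cell, had 0.23 with Mt2 and 0.18 with Mt1. Slc30a8 had -0.02 with Mt2 and -0.01 with Mt1, Mt3 had a mean r of -0.11 to the list's members, and the median of the list was -0.014. Among depth measures, Mt1 had -0.10 with log10 UMIs and Mt2 -0.17.

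The highest r of Ddit3 were with the metallothioneins, not with other stress genes. It gave 347.1 CPM, was detected in 67.6% of beta cells at 5000 UMIs and had a Fano factor of 2.64, but its partners were Mt2, Mt1 and Eif5 (0.33) and no gene of the integrated stress response came as high. That list, with 28 of 38 genes measured, had a median r of 0.048 and 0 of 378 pairs at 0.3 or more, and its highest pair had 0.27. Within it Ddit3 had 0.27 with the pseudokinase Trib3, and 0.26 each with Ppp1r15a, which reverses the block of translation, and with Nupr1. Counting noise lowers r in sparse genes. As CPM of the UMIs outside Ins1, Ins2, Iapp and mt- genes, Trib3 gave 118, Ppp1r15a 134 and Nupr1 1700. On that scale Mt2 gave 3030 and Mt1 14400, so these r do not rank how closely Ddit3 varied with each. The lowest r of Ddit3 was with G6pc2, the islet glucose-6-phosphatase (-0.31).

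Hypoxia and glycolysis genes formed a further block. Gapdh had 0.78 with the cytokine Mif, 0.74 with Bnip3, a mitophagy receptor induced by low oxygen, and 0.73 with Aldoa. Bnip3 had 0.68 with Ero1l and with Egln1, the oxygen-sensing hydroxylase. The hypoxia list had 20 of 23 genes measured, with a median of 0.281 and 90 of 190 pairs (47.4%) at 0.3 or more. The glycolysis list had 16 of 18, with 0.212 and 55 of 120 (45.8%). Their mean scores had an r of 0.80, and the lists share 3 genes. Levels were wide: Gapdh ran between 260 CPM at the 5th and 3630 CPM at the 95th percentile, and Ero1l between 0 and 1570 CPM. Vegfa, a vascular growth factor on the same list, hardly took part, with a mean r of 0.07.

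Against this block stood the ribosomal proteins. Their 54 genes had a median r of 0.311 with 816 of 1431 pairs (57.0%) at 0.3 or more, yet none reached a Fano factor of 2 and the median was 1.32: they varied little but together. The mean score of ribosomal genes had -0.38 with that of glycolysis and -0.32 with that of hypoxia. Pkm, which makes pyruvate in the last step of glycolysis, had -0.35 with Rps14. Other genes of the block were nearer to none: Pgk1 had -0.27 with Rps14, Gapdh -0.16, Bnip3 -0.14 and Egln1 -0.04. Shares of 1 total are tied, and the part of this in these values was not tested. The 65 nuclear genes of oxidative phosphorylation were looser, with a median of 0.098 and 3 of 2080 pairs at 0.3 or more, and their score had 0.41 with the ribosomal score and -0.35 with that of hypoxia. Ndufa4 with Atp5g1 was the highest pair, at 0.38.

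The 13 mt- genes had a median r of 0.551 with 55 of 78 pairs (70.5%) at 0.3 or more, led by mt-Atp6 and mt-Co3 at 0.91, which adjoin on the mitochondrial genome. The mt- share of a barcode had -0.40 with log10 of its UMIs and -0.31 with its insulin share. Malat1 and Neat1, which stay in the nucleus, had 0.30, and Malat1 had 0.33 with the imprinted long RNA Kcnq1ot1. The nuclear long RNAs had a median of 0.24 over 15 pairs, and their score had 0.30 with the mt- share. The lowest r of Malat1 were with Tpt1 (-0.30) and Rps2 (-0.28).

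Interferon genes marked a small set of cells. Of 36 genes 7 were measured, with a median r of 0.313 and 12 of 21 pairs at 0.3 or more. Rsad2 had 0.77 with Ifit1, an antiviral RNA-binding protein, 0.74 with Cmpk2, which lies 12751 bases from it on chromosome 12, and 0.71 with Ifit3. Ifit3 was detected in 2.99% of beta cells at 5000 UMIs, and 76.2% of its UMIs lay in the top 1% of barcodes. At least 5 interferon genes were found in 262 of 5490 beta cells (4.77%, interval 4.22% to 5.37%). The score of the list had 0.36 with that of MHC class I presentation, in which the heavy chain H2-K1 had 0.58 with B2m, the light chain, and 0.54 with H2-D1. Rsad2 was detected in 8.45% of beta cells, against 23.6% of the endothelial or macrophage barcodes, which can make it themselves.

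Genes of beta-cell identity mostly had a low r with each other. Over 22 of 24 genes the median r was 0.048, and 6 of 231 pairs (2.60%) reached 0.3. Mafa, which switches on genes of the mature beta cell, was in most of them: it had 0.46 with Slc2a2, 0.39 with Ero1lb, an oxidase of the endoplasmic reticulum that folds proinsulin, 0.38 with G6pc2 and 0.31 with Pdx1. The highest pair of the list was G6pc2 with Ero1lb, at 0.47. Mafa gave 273.5 CPM, was detected in 50.7% of beta cells at 5000 UMIs and had a Fano factor of 3.59, against 1.39 for Nkx6-1 and 1.32 for Pdx1. Nkx6-1, which marks the class, went with little: its highest r were 0.18 with Sphkap, an anchoring protein, and 0.17 with Slc30a8, the granule zinc transporter, and with Mafa. Values this low in sparse counts are no finding. Granule docking and fusion, lipogenesis and proteasome genes had medians of 0.016, 0.018 and 0.033, with 0 of their pairs at 0.3 or more.

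Heat shock genes had a median of 0.156 with 10 of 45 pairs at 0.3 or more, among them the chaperone Hsp90aa1 with Hsp90ab1 and with Hspa8 at 0.52 each. The r of Hsp90aa1 with Hspa8 was 0.20 with log2(count + 1) after thinning to 2000 UMIs. Immediate early genes had a median of 0.071 with 3 of 66 pairs at 0.3 or more, the highest being Nr4a2 with Irs2 at 0.36. At least 3 UMIs of the inducible Hspa1a and Hspa1b were found in 63 of 5490 beta cells (1.15%, interval 0.883% to 1.47%). In the remaining tail, Sst had 0.70 with Rbp4, a retinol carrier of delta cells, and Ppy had 0.63 with Pyy, 5356 bases apart on chromosome 11. With log2(count + 1) after thinning, Sst with Rbp4 had 0.36, and with the hormones each under 0.1% of UMIs, which removes high values of both, Ppy with Pyy had 0.14. Fth1, the ferritin heavy chain, had 0.52 with the actin-binding Tmsb4x and gave 1442 CPM in beta cells, against 22900 CPM in the endothelial or macrophage barcodes. The r of Sst with Rbp4 was 0.62 without the barcodes of the highest doublet scores, which came from the same run that called 0 doublets.

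The barcodes were then ordered by their insulin share and cut into quintiles of 1141 (1140 in the highest), to see which other RNAs go with the measure that chose them. Median insulin shares were 17.5%, 23.5%, 27.5%, 31.3% and 37.8% of UMIs. Depth and mt- share moved too: the median UMIs were 14893.5 in the highest quintile and 9796 in the lowest, and the median mt- shares 1.74% and 2.94%, and their part in the differences was not tested. Levels are CPM of the UMIs outside Ins1, Ins2, Iapp and mt- genes, summed per quintile. Of 6777 genes with at least 20 CPM, 9 (0.133%) were at least 2-fold higher in the highest than in the lowest quintile and 19 (0.28%) at least 2-fold lower. The median log2 ratio of all genes was -0.12, so values are to be read against that shift.

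Of the 9 genes that were at least 2-fold higher, Fkbp11 and Ssr4 belong to the entry and folding of secretory proteins. Fkbp11, a proline isomerase of the endoplasmic reticulum, stood at 110, 170, 201, 251 and 322 CPM over the quintiles, from low to high insulin, a log2 ratio of 1.55. It was higher at each step. Ssr4 stood at 700, 917, 1080, 1210 and 1490 CPM (1.09). Sdf2l1, at 451, 672, 778, 810 and 886 CPM (0.97), stayed below 2-fold. The largest ratio was that of Pappa2, a protease of insulin-like growth factor binding proteins, at 1.74 but with 60.3 CPM at most. Dapl1 had 1.63, the metallothionein Mt3 1.28, the membrane protein Ttyh1 1.18, and Phgdh, the entry to serine synthesis, 1.02. Dnajb1, a heat shock co-chaperone, had 1.01 but only through the highest quintile, with 114 CPM there against 43.3 to 56.2 CPM in the other quintiles.

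Read against the median of all genes, the unfolded protein response list stood 0.62 higher (28 genes, 1 at least 2-fold higher), granins and prohormone processing 0.43 higher and nuclear oxidative phosphorylation 0.36 higher. The interferon list stood 0.37 lower, glycolysis 0.30 lower, hypoxia 0.29 lower and the identity genes 0.22 lower. CPM of all UMIs shifts the log2 ratio of every gene by the same amount, so these differences from the median cannot change with it. The lists themselves then read 0.0, -0.18, -0.25, -0.98, -0.92, -0.90 and -0.83 in that order. Under that scaling the granins and the oxidative phosphorylation genes thus change sign, and the unfolded protein response list sits at 0.

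Among the genes that were lower, several are known from other cells. Ctrb1, an acinar protease, had a log2 ratio of -3.29, with 7.74 CPM in the highest quintile and 75.8 CPM in the lowest. Pyy had -2.37 (328 and 1700 CPM), Sst -1.68 (121 and 387 CPM) and Rbp4 -1.79 (25.9 and 89.8 CPM). With Gcg, Sst, Ppy and Pyy each under 0.1% of UMIs, the ratio of Rbp4, which that limit does not use, was -1.17. The chemokine Ccl5 (-1.92) and the tetraspanin Cd81 (-1.72) gave 12.7 and 55.1 CPM of all UMIs over the beta cells, against 5760 and 668 CPM in the endothelial or macrophage barcodes. Lcn2 had -2.18 (29.6 and 135 CPM), and Sez6l, a membrane protein of neuroendocrine cells, had -1.41 with 53.5 CPM in the highest quintile and 142 CPM in the lowest, against 1.58 CPM on the same scale in the endothelial or macrophage barcodes.

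**Figure D4:**
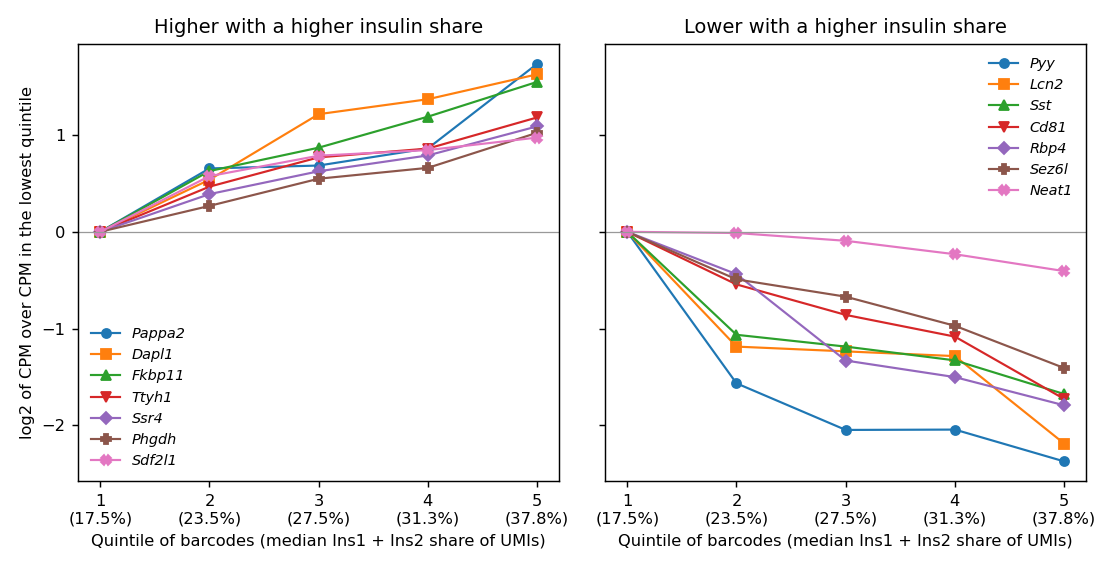
Levels over quintiles of the beta cells ordered by insulin share, as log2 of the CPM outside Ins1, Ins2, Iapp and mt- genes over that in the lowest quintile; the median insulin share of each quintile is given below it. Fkbp11, Ssr4, Sdf2l1 and others are higher at each step, and Pyy, Lcn2, Sst, Rbp4 and others are lower in the highest quintile than in the lowest, with most of the Pyy and Sst difference between the lowest quintile and the next.

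The same r was computed in the beta cells of the other libraries as a repeat of the measure, not as a comparison of conditions, since each library stands alone. In the order imeglimin 11.1 mM, imeglimin 3.9 mM, vehicle 11.1 mM and vehicle 3.9 mM, Mt2 and Mt1 had 0.84, 0.75, 0.90 and 0.74. Ins2 and Ins1 had 0.85, 0.94, 0.84 and 0.87, and Manf and Sdf2l1 0.71, 0.66, 0.61 and 0.53. These pairs recurred in every library. Others were not found in each: Gapdh and Mif had 0.78, 0.10, 0.81 and 0.75, Mafa and Slc2a2 0.46, 0.09, 0.48 and 0.16, and Mt1 and Gnai2 0.43, -0.06, 0.52 and 0.07. Mt1 and Manf had -0.39, 0.03, -0.15 and 0.03, an opposition that 2 of the libraries did not show. Ddit3 and Mt2 had 0.46, 0.16, 0.52 and 0.27. Pkm and Rps14 had -0.35, 0.02, -0.11 and -0.0, so that opposition was weak or absent outside the first library. Median depth was 12755.5, 9552, 13010 and 12270 UMIs in that order, and its part in these values was not tested.

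**Figure D5:**
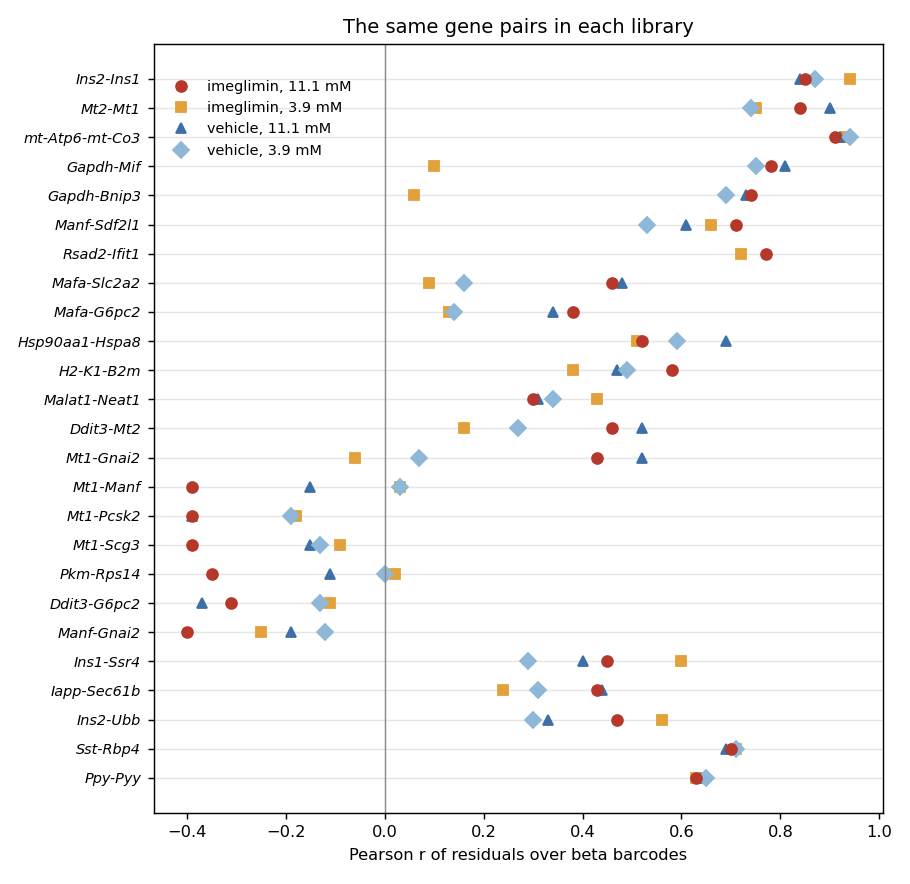
Pearson r of residuals over beta cells for 25 named gene pairs in each of the 4 libraries, with the imeglimin 11.1 mM library as red circles. Rsad2 with Ifit1 has no value in the vehicle libraries, where not both genes reached the required mean of at least 0.2 UMI per barcode. Symbols that overlap are drawn over each other.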

How the data were processed

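The deposited matrices hold raw counts: whole numbers of UMIs of each gene in each barcode, made by the authors from 10x 3′ libraries with Cell Ranger 6.0.2 on mm10, per the submitters' processing notes. Of 32285 gene IDs, 32158 were found in GENCODE vM21, the source of positions. Where 78 rows repeated a symbol, the ID with the most UMIs kept it.

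The beta cells were taken by the limits given at the start of the results, from measured values. The members and the 26 gene lists were chosen with earlier results of these data known. Levels are summed UMIs as CPM. Fano factors were computed after thinning each barcode to 5000 UMIs (genes with a mean of at least 0.1), correlations on negative binomial Pearson residuals (theta 100, mean of at least 0.2) over all members, and list scores as the mean standardised residual of a list's measured genes. Endothelial or macrophage barcodes had at least 3 markers of that type and an insulin share under 4%. Named were the 25 most expressed and the 25 most dispersed genes, the 20 highest pairs, the extreme partners of 8 chosen genes, up to 6 members of each list, and the 10 genes most different each way between the outer quintiles. Of these, and beyond them, the genes printed were picked for description after their values were seen. No condition was tested, since each had 1 library. Exact Clopper-Pearson intervals cover counting error only. Scrublet, in scanpy, called 0 doublets where 6.74% was expected and so did not work; members were left in, and an alternative left out the 568 highest scores, 276 of them members. The correlation and dispersion scripts were tested on simulated data. Python 3.11.15, numpy 2.4.6, scipy 1.17.1, pandas 2.3.3, scanpy 1.11.5 and matplotlib 3.10.9 were used.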

Additional observations from a re-analysis of the deposited data

How the results depend on the processing

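The counts depend on depth and on the total used. Instead of 90 genes with a Fano factor of at least 2, there were 55 when barcodes were thinned to 3000 UMIs, 161 at 10000, 49 when UMIs outside Ins1, Ins2, Iapp and mt- genes were thinned to 2000, and 251 with no minimum of the mean; 55, 89, 48 and 90 of these were among the 90. Instead of 3218 pairs with an r of at least 0.3, there were 104 with log2(count + 1) after thinning to 2000 UMIs. In place of 11 lists with a median r of at least 0.1 there were 4. That log2 setting left out Ins1, Ins2, Iapp and mt- genes. Pairs with these genes, and the lists of insulin and amylin and of mt- genes, could thus not be counted in it. Instead of 28 genes at least 2-fold apart between the outer quintiles, there were 351 under CPM of all UMIs (3 higher, 348 lower, median log2 ratio of all genes -0.61). The median r of insulin and amylin was -0.07, not 0.26, with expected counts from all UMIs, and the cause was not tested. It was the only value called reversed among 650 of single genes, pairs and lists, of which 92 moved. Very small r in the main setting could not be called reversed. The list ratios over quintiles were not among the 650, and those of granins and oxidative phosphorylation change sign under CPM of all UMIs. Limits on mt- share, insulin share and doublet scores, and 2 limits chosen after the data were seen (each other hormone under 0.1%, and the middle 2852 barcodes by UMIs), kept the counts of dispersed genes, pairs and lists within 1.5 times where they were run. With each other hormone under 0.1%, the genes at least 2-fold lower in the highest quintile were 11, not 19, and those at least 2-fold higher 8, not 9. The r of Mt1 with Manf ranged between -0.41 and -0.33 over 8 alternatives, that of Gapdh with Mif between 0.57 and 0.79, and that of Mafa with Slc2a2 between 0.26 and 0.47. With log2(count + 1) after thinning, the named pairs that could be computed were nearer to 0, among them Manf with Sdf2l1 to 0.42, H2-K1 with B2m to 0.29, Ddit3 with Mt2 to 0.27, Manf with Gnai2 to -0.24, Ddit3 with G6pc2 to -0.20 and Pkm with Rps14 to -0.18. No paired analysis was possible because each condition has 1 library, so the groups share fewer than 2 replicate numbers. At 5000 UMIs, genes under 0.1 UMI per barcode could not be read.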
